A study of Homo sapiens with 4 samples.

Results

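The cytosolic ribosomal protein genes encode the protein parts of the ribosome that translates nuclear-encoded messenger RNA. They were taken from the count tables by symbol: RPL or RPS followed by a number and, where present, a copy letter, together with RPLP0, RPLP1, RPLP2 and RPSA. The kinases of the RPS6K family and the processed pseudogenes were left out. This gave 84 of 56655 gene symbols. Of these, 46 belong to the large subunit, 31 to the small subunit, and 7 are alternative copies of a standard protein (RPL3L, RPL7L1, RPL10L, RPL22L1, RPL26L1, RPL39L and RPS27L).

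RNA was measured in OVCAR5, an established human ovarian cancer cell line that the labels call OVCAR-5, with ascites as its source and high-grade serous as its type. A short hairpin RNA is cut by the cell's own enzymes and then directs the breakdown of a matching transcript. Cells at passage 4-6 carried a control hairpin in the shCtrl group (2 libraries) and 1 hairpin against the forkhead transcription factor gene FOXK2 in the shFOXK2 group (2 libraries). Both hairpins were delivered by lentivirus into stably selected cells, so puromycin selection was common to both groups, and the effect of the FOXK2 hairpin cannot be told apart from that of the particular stable population made with it. The 4 libraries held 14284005 to 21950873 counts. Polyadenylated RNA was sequenced in bulk, so every value is a share of a library, and a change in RNA content per cell cannot be told apart from a change in other transcripts. The question put here is how the ribosomal protein genes as a family, and each member within it, differed between the groups.

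FOXK2 itself was counted 1796 and 1499 times with the control hairpin and 1086 and 1084 times with its own. Both shFOXK2 libraries were lower on the scaled level as well, but the fall did not pass the test (log2 fold change −0.36, SE 0.25, adjusted p = 0.257). The epithelial markers EPCAM, KRT8, KRT18 and KRT19 were counted at least 1142 times in every library. CDH1, the epithelial cadherin, fell from 459 and 260 counts to 13 and 24, and PAX8, a Müllerian lineage factor, from 351 and 335 counts to 156 and 162.

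A mature ribosome holds 1 copy of nearly every ribosomal protein, and excess free protein is degraded, so cells normally make these proteins in step. Messenger RNAs of the family typically begin with a C followed by an unbroken stretch of pyrimidines, the 5′ terminal oligopyrimidine (TOP) element. The growth-regulating mTOR kinase acts through this element, with the RNA-binding protein LARP1, mainly on translation and on the stability of the message. Some members act outside the ribosome when assembly is disturbed. RPL5 and RPL11, with the 5S ribosomal RNA, bind the ubiquitin ligase MDM2, and inherited loss of 1 copy of several members causes Diamond-Blackfan anaemia, a failure of red cell production.

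The TOP element is known from most of the family, and start windows are shown here for genes on which the results turn, with the run and without it. Each window runs from 12 bases before to 17 bases from the annotated RefSeq start (GRCh38.p14), 5′ to 3′ on the gene's own strand. Capitals mark a C followed by at least 4 pyrimidines at the start.
RPLP2: cgtcggcgccttCCTTTTCCTCCCTgtcg (chr11:809955-809983, plus strand)
RPS6: cggaagttggccCTCTTTTCCgtggcgcc (chr9:19380220-19380248, minus strand)
RPL21: ccccgcctctttCCTTTCggccggaaccg (chr13:27251546-27251574, plus strand)
RPL36A: gcctcgcggtttCTTTCTTTCCgcgccga (chrX:101390999-101391027, plus strand)
RPL22: ttcgctcacctcCCTTTCTaactccgctg (chr1:6199579-6199607, minus strand)
RPL22L1: ggccgtagcttcCTCTCTgctctcgcggc (chr3:170870179-170870207, minus strand)
RPL26: cagcgtgtagttCTCTTCCCTTTTgcggc (chr17:8383177-8383205, minus strand)
RPL26L1: cttccaggggtcggcgaacgaaacgcgga (chr5:172958717-172958745, plus strand)
RPS27: tccgctttcgctCCTTTCCggcggtgacg (chr1:153990750-153990778, plus strand)
RPS27L: ttgatgccgagcgcagatcgcttgcagct (chr15:63157461-63157489, minus strand)
RPL6: gagacggcgcgtgcactgtgttcctggtc (chr12:112409269-112409297, minus strand)
RPS4X: gtctccagccccaatttctacgcgcaccg (chrX:72277232-72277260, minus strand)
The pairs RPL26 with RPL26L1 and RPS27 with RPS27L show a standard protein with the run and its alternative copy without it, whereas RPL22L1 starts with the run as RPL22 does. RPL6, which rose in shFOXK2, and RPS4X, which did not pass the test, are standard members without a run at the starts shown.

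RefSeq start windows were at hand for 67 of the 84 genes. Genes with no window included RPL39L, RPS2, RPL7, RPS20, RPL5, RPS15A, RPL23A, RPL8, RPL23, RPL37, RPL3L and RPL30. Searched on the gene's strand, a run began exactly at an annotated start for 47 of the 67 genes (70.15%) and within 10 bases of it for 58 (86.57%). Among all 27305 genes with such windows the shares were 5.142% and 38.43%. Of the 62 standard members, 46 held the run at the start, against 1 of 5 alternative copies. The run was at the start of 8 of the 10 genes that rose in shFOXK2 and of 39 of the 56 tested genes that did not pass the test, so it was common on both sides. A forkhead core, TGTTTAC on either strand, was in the 300-base promoter window (250 bases before to 50 after the start) of 0 of 67 members and of 4.193% of all genes. No match says only that these letters are not in this window.

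The family as a whole took a larger share of the shFOXK2 libraries. The 84 genes together held 979266 and 931661 counts with the control hairpin and 879254 and 1186686 with the FOXK2 hairpin. As shares of all gene counts these were 4.46% (95% Wilson interval 4.45% to 4.47%) and 5.54% (5.53% to 5.56%) for the shCtrl libraries. The shFOXK2 libraries were at 6.16% (6.14% to 6.17%) and 6.69% (6.68% to 6.70%). The intervals cover counting error alone and are far narrower than the distance between replicates. The group means were 5.00% ± 0.766 and 6.42% ± 0.379 (SD, n = 2 each), a difference of 1.42 percentage points, and the groups did not overlap. Leaving out each library in turn gave differences from 0.880 to 1.96 points. No p-value is given, since an exact permutation test of 2 against 2 libraries cannot reach 0.05.

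**Figure D1:**
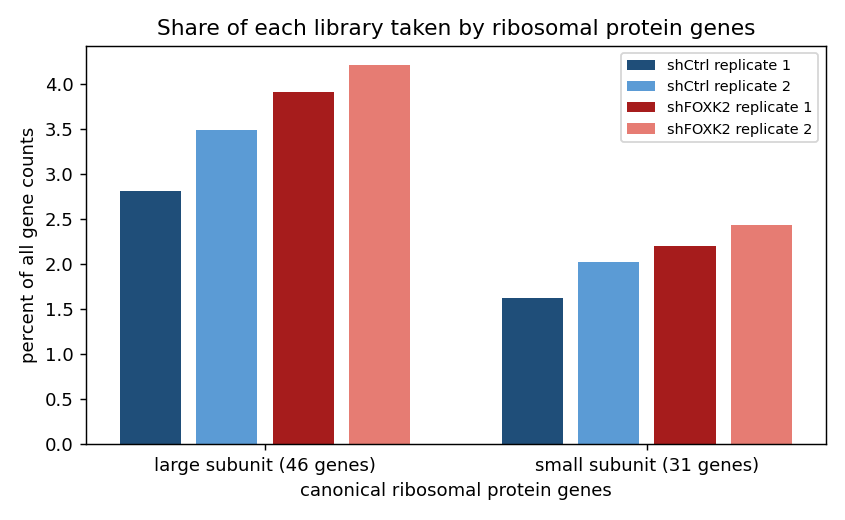
Bars give the percent of all gene counts in each of the 4 libraries, for the 46 large subunit genes and the 31 small subunit genes. In both subunits the shCtrl libraries are lowest, shCtrl replicate 1 stands below shCtrl replicate 2, and the shFOXK2 libraries are highest.

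Both subunits moved by a like amount. The large subunit took 2.81% and 3.49% of counts in shCtrl and 3.91% and 4.21% in shFOXK2. The small subunit took 1.62% and 2.02%, then 2.20% and 2.43%. The ratio of group means was 1.29 for the large subunit and 1.27 for the small subunit. The alternative copies, which together took a small share of each library, had a ratio of 1.46.

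The shCtrl replicates differed from each other across almost the whole family. After scaling, shCtrl replicate 1 was above shCtrl replicate 2 for 7 of the 82 tested members, and the median log2 difference between them (replicate 1 minus replicate 2) was −0.41. The median log2 difference between the shFOXK2 libraries (replicate 2 minus replicate 1) was 0.12. The median log2 fold change of the members between the groups was 0.30, smaller than the distance between the shCtrl replicates.

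Of the 84 genes, 82 passed the low-count filter. RPL10L was at 1, 1, 0 and 0 counts (shCtrl replicates 1 and 2, then shFOXK2 replicates 1 and 2, the order used throughout), and RPL3L, a copy known from striated muscle, was at 4, 4, 7 and 17. With an adjusted p under 0.05, 16 members rose in shFOXK2, 0 fell and 66 did not pass. Over all 16417 tested genes 25.7% rose, 22.7% fell and 48.4% changed in either direction, so the share of members called (19.5%) was below the background while all of the calls were in the same direction. Both of these depend on the fit. With a smooth offset on GC content 43 of 82 members rose and 2 fell. Over all genes that offset called 53.0% (28.9% higher and 24.1% lower). With an offset on transcript length 12 members rose and 6 fell, beside 52.5% of all genes called (28.6% higher and 23.9% lower). Before adjustment 28 of the 82 members had a p under 0.05, beside 9024 of the 16417 tested genes. The DESeq2 Wald test also gave 16 higher and 0 lower, beside 43.02% of all genes called (21.92% higher and 21.1% lower). The edgeR exact test gave 20 and 0, beside 49.59% (26.34% higher and 23.25% lower). On the fitted log2 scale 65 members were positive and 17 negative, with a median of 0.30 beside 0.04 for all tested genes. Both shFOXK2 libraries lay above both shCtrl libraries for 45 members and below them for 3. Over all genes these shares were 39.2% and 36.2% (75.4% without overlap in either direction).

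**Figure D2:**
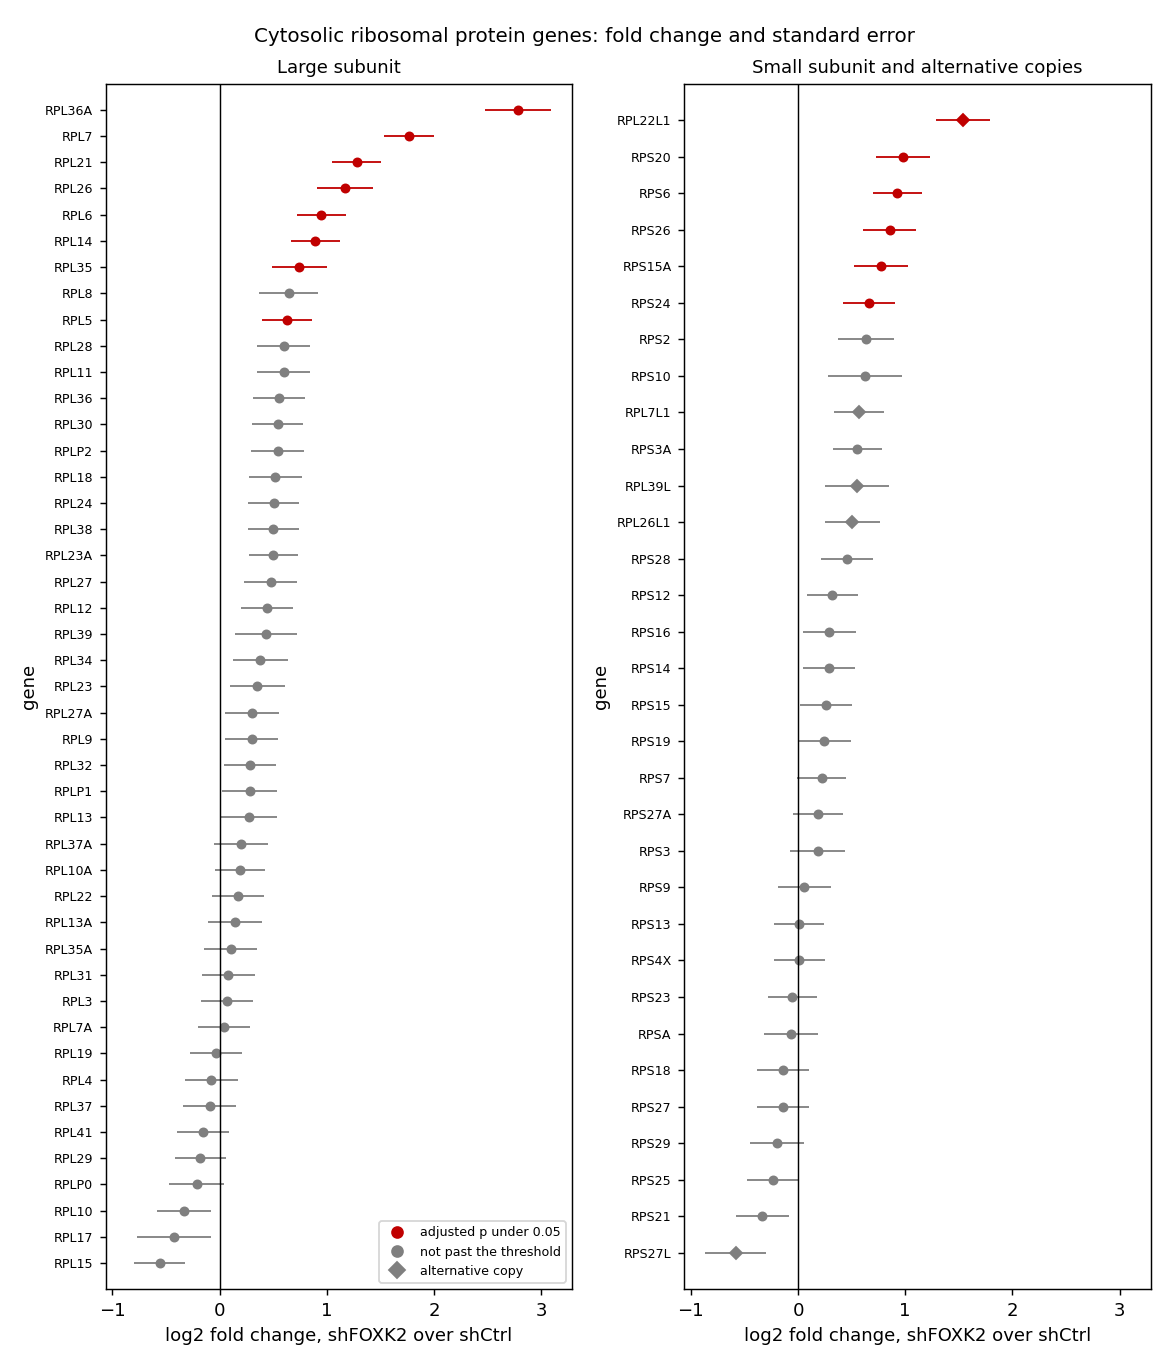
Points give the log2 fold change of shFOXK2 over shCtrl for each of 77 tested genes and bars its standard error, with large subunit genes on the left and small subunit genes and alternative copies (diamonds) on the right. Red marks the 14 genes drawn with an adjusted p under 0.05, all to the right of 0, and the values run from −0.58 for RPS27L to 2.78 for RPL36A.

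In the large subunit 8 of 46 genes rose and 0 fell, with a median log2 fold change of 0.37. RPL36A (chromosome X, 101390824-101396155 of hg38, plus strand), a small zinc-binding protein near the exit site for transfer RNA, had the largest change. It was counted 101, 59, 362 and 568 times, so both shFOXK2 libraries were well above both controls. In CPM, the count scaled to a common library size, its level rose from 4.10 ± 0.602 to 28.3 ± 4.07 (SD, n = 2 each, as for every such pair). The fitted change was 2.78 on the log2 scale (SE 0.31, adjusted p = 1.90e-05). RPL36A shares 43.8% of its exon bases with other annotated genes on the same strand, among them the readthrough RPL36A-HNRNPH2, itself at 0 counts in every library. Reads there may not have been counted for either gene, so the counts can stand for only part of the transcript.

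RPL7, on chromosome 8 (73290242-73295789, minus strand), was counted 6193, 4365, 12756 and 17753 times. The control libraries were nearly equal after scaling, at 275 ± 4.02 CPM, and the shFOXK2 libraries reached 936 ± 55.5 CPM. The log2 fold change was 1.77 (SE 0.23, adjusted p = 6.67e-05). Of its 50-base windows 58.8% also occur in annotated transcripts of other genes. The pseudogene rows named for RPL7 held 109, 85, 287 and 427 counts together, which moved the same way and were a small fraction of the parent.

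RPL21 (chromosome 13, 27251362-27256691, plus strand) was counted 4001, 2877, 5752 and 8483 times, and its shCtrl libraries were again close after scaling (179 ± 0.0860 CPM against 435 ± 43.6 CPM in shFOXK2). The log2 fold change was 1.28 (SE 0.23, adjusted p = 5.62e-04). RPL21 has 133 named pseudogenes and shares 85.1% of its 50-base windows with other transcripts, more than RPL36A, RPL7 or RPL26. RPL26, which binds near the peptide exit tunnel, was counted 1351, 1174, 1724 and 3256 times (log2 fold change 1.17, SE 0.26, adjusted p = 0.00255). The shFOXK2 replicates of RPL26 were unequal, at 150 ± 40.8 CPM, but both exceeded the controls at 66.8 ± 8.89 CPM. RPL26 shares 65.3% of its exon bases with another annotated gene on the same strand, so its counts can stand for only part of the transcript.

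RPL6 was counted 6287, 4518, 7803 and 9824 times. Its level was almost the same within each group, at 282 ± 0.258 CPM in shCtrl and 544 ± 6.27 CPM in shFOXK2 (log2 fold change 0.95, SE 0.23, adjusted p = 0.00367). RPL14, RPL35 and RPL5 completed the large subunit genes that rose, with log2 fold changes of 0.89, 0.74 and 0.63.

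In the small subunit 7 of 31 genes rose and 0 fell, with a median log2 fold change of 0.24. RPS20, a protein of the 40S head, was counted 10518, 10349, 14117 and 21909 times. Both shFOXK2 libraries were higher, at 1098 ± 149 CPM against 558 ± 122 CPM (log2 fold change 0.98, SE 0.25, adjusted p = 0.00624). The groups did not overlap.

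RPS6, the 40S protein phosphorylated by the S6 kinases downstream of mTOR, was counted 9326, 6475, 10494 and 15007 times. The level rose from 411 ± 10.4 to 781 ± 61.3 CPM (log2 fold change 0.93, SE 0.23, adjusted p = 0.00484). RPS26, RPS15A and RPS24 also rose, with log2 fold changes of 0.85, 0.77 and 0.66.

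The calls of these 16 genes were not equally firm. RPL36A, RPL7, RPL22L1 and RPL14 rose with an adjusted p under 0.05 in all 17 alternative fits that tested against no change. Offsets on composition or length ended other calls. RPL21, RPL26 and RPL6 had negative fold changes under an offset on transcript A content, and RPS6 fell short under it (log2 fold change 0.20, adjusted p = 0.459). RPS20 fell short under an offset on transcript length (0.50, adjusted p = 0.0656). The calls of 10 genes held whichever library was left out, whereas RPS26, RPS15A, RPL35 and RPS24 lost theirs without shCtrl replicate 1 (adjusted p from 0.0919 to 0.19) and again without shFOXK2 replicate 2 (0.052 to 0.321). RPL5 lost its call whichever library was left out (0.0562 to 0.282).

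The genes of the 5S particle proteins, RPL5 and RPL11, showed near-equal log2 fold changes of their RNA. RPL5 was counted 12081, 8729, 10794 and 16667 times, and after scaling its levels of 543 ± 1.59 and 837 ± 111 CPM did not overlap (log2 fold change 0.63, SE 0.23, adjusted p = 0.0407). RPL11 was counted 14488, 12382, 13558 and 21779 times, with a log2 fold change of 0.60 (SE 0.24) and an adjusted p of 0.0577. The members thus lay on opposite sides of the threshold with fold changes that differed by far less than their standard errors.

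The P stalk, where the translation factors that hydrolyse GTP bind, is built on RPLP0 with RPLP1 and RPLP2 attached. None of its genes passed the test. RPLP2 was counted 16240, 15835, 17375 and 23156 times (log2 fold change 0.54, SE 0.25, adjusted p = 0.087). RPLP1 had 29019, 28154, 27538 and 32243 counts (0.28, SE 0.25, adjusted p = 0.385). RPLP0, often used as a reference gene in PCR, had 27637, 28384, 19342 and 22474 counts (log2 fold change −0.21, SE 0.26, adjusted p = 0.518), and overlapped between the groups.

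The members with the highest CPM were RPL8, RPL13, RPS3, RPL4 and RPLP1, and none of them passed the test. RPL8, part of the peptidyl transferase surroundings, was counted 59184, 61404, 73312 and 90634 times, more than any other member. Its shCtrl replicates differed widely (3239 ± 829 CPM against 5066 ± 124 in shFOXK2), and the log2 fold change of 0.65 (SE 0.27) had an adjusted p of 0.0671. RPL13 had 34817, 36368, 33980 and 40545 counts (0.27, adjusted p = 0.419). RPS3, which lines the entry of the messenger RNA channel, had 34487, 33633, 28610 and 38723 (0.18, adjusted p = 0.578), and RPL4, which reaches into the exit tunnel, had 37802, 33322, 24149 and 34136 (−0.08, adjusted p = 0.82).

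The smallest changes were those of RPS4X, RPS13 and RPL19. RPS4X, encoded on the X chromosome, was counted 12895, 11546, 8720 and 12631 times (log2 fold change 0.01, SE 0.24). RPS13 had 10377, 9272, 7784 and 9180 counts (0.01, SE 0.23), and RPL19 31570, 28457, 22468 and 27939 (−0.03, SE 0.25). With standard errors of this size a modest change either way was not detectable. RPSA, the 40S protein also known as a laminin receptor precursor, had 11439, 11984, 8210 and 11399 counts (−0.07, adjusted p = 0.852). RPS27A, made as a fusion with ubiquitin, had 14897, 12028, 10783 and 15570 (0.19, adjusted p = 0.532), and RPL3, at the peptidyl transferase centre, 18336, 17505, 14868 and 17486 (0.07, adjusted p = 0.839).

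Among the 17 members with a negative fold change none passed the test. The lowest were RPS27L, described with the copies, and RPL15, named here after its value was seen. RPL15, a core large subunit protein, was counted 14232, 13027, 6724 and 9319 times, at 725 ± 123 CPM in shCtrl and 492 ± 27.8 in shFOXK2. Both shFOXK2 libraries were below both controls (log2 fold change −0.56, SE 0.24, adjusted p = 0.0679). RPL10, at the joining face of the 60S subunit, had 11833, 11964, 7848 and 8397 counts (−0.33, SE 0.25, adjusted p = 0.291) and overlapped between groups.

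RPL17 and RPS10 were counted far less than their neighbours in the ribosome. RPL17 was at 156, 173, 111 and 99 counts and RPS10 at 112, 145, 141 and 212. RPL17 shares 96.9% of its exon bases with other annotated genes on the same strand and RPS10 84.0%, including the readthroughs RPL17-C18orf32 and RPS10-NUDT3, whose own rows were at 0 in all 4 libraries. Their counts are therefore uncertain as levels.

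The alternative copies were compared with their standard partners. RPL22L1 was the only tested copy of 5 to pass the test, and it is known to take the place of RPL22 in the ribosome and to be held down by RPL22 in other cells. It was counted 572, 482, 1157 and 1456 times, at 27.8 ± 3.10 CPM in shCtrl and 80.7 ± 0.955 in shFOXK2 (log2 fold change 1.54, SE 0.25, adjusted p = 2.99e-04). RPL22 was counted 3223, 2197, 1901 and 3339 times and overlapped between the groups (log2 fold change 0.17, SE 0.24, adjusted p = 0.582). The counts of RPL22L1 were 17.7% and 21.9% of those of RPL22 with the control hairpin and 60.9% and 43.6% with the FOXK2 hairpin. Less than 1% of the 50-base windows of RPL22L1 occur in other transcripts (0.809%), so its reads can be told from those of RPL22.

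In the pair of RPL7 and RPL7L1 the ratio of copy to partner was lower in shFOXK2, a difference that was not tested. RPL7L1, a protein of early 60S assembly, was counted 3575, 3092, 3544 and 4980 times (log2 fold change 0.57, SE 0.23, adjusted p = 0.0564). Its counts went from 57.7% and 70.8% of those of RPL7 to 27.8% and 28.1%. RPL26L1 was counted 706, 676, 714 and 994 times (0.51, SE 0.26, adjusted p = 0.122), and its counts relative to RPL26 went from 52.3% and 57.6% to 41.4% and 30.5%. In both pairs the ratio did not overlap between the groups, and in both it was the standard gene that passed the test.

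Neither RPL39 nor its copy RPL39L passed the test. RPL39 was counted 225, 201, 227 and 265 times (log2 fold change 0.43, adjusted p = 0.234) and RPL39L 232, 253, 279 and 339 times (0.55, adjusted p = 0.144). RPL39L is known mainly from the testis and from tumours. Its counts, with no correction for length, were 103% and 126% of those of RPL39 in shCtrl and 123% and 128% in shFOXK2. RPL39 was at a mean of 13.3 CPM, far below the lower quartile of the members (359 CPM). It has 19 named pseudogenes and shares 37.8% of its short sequence windows with other transcripts, against 0 and 2.65% for RPL39L. Whether reads of RPL39 were lost in the counting was not tested, so these ratios are uncertain as a balance of the pair. RPS27 had 6819, 6781, 4706 and 6017 counts (−0.14, adjusted p = 0.663). RPS27L had 1460, 1216, 503 and 1072 (−0.58, SE 0.28, adjusted p = 0.105), with both shFOXK2 libraries below both controls.

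RPL36A has a closely related gene, RPL36AL, which the symbol rule does not take. RPL36AL was counted 2385, 1624, 2980 and 5959 times and also rose (log2 fold change 1.37, SE 0.26, adjusted p = 8.49e-04). Since RPL36AL held most of the counts of the pair, the combined count rose by less than that of RPL36A alone. The counts of RPL36A may cover only part of its transcript, so the balance of the pair and its combined level are uncertain. The differences of log2 fold change within pairs were not tested beyond the test of each copy.

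**Figure D3:**
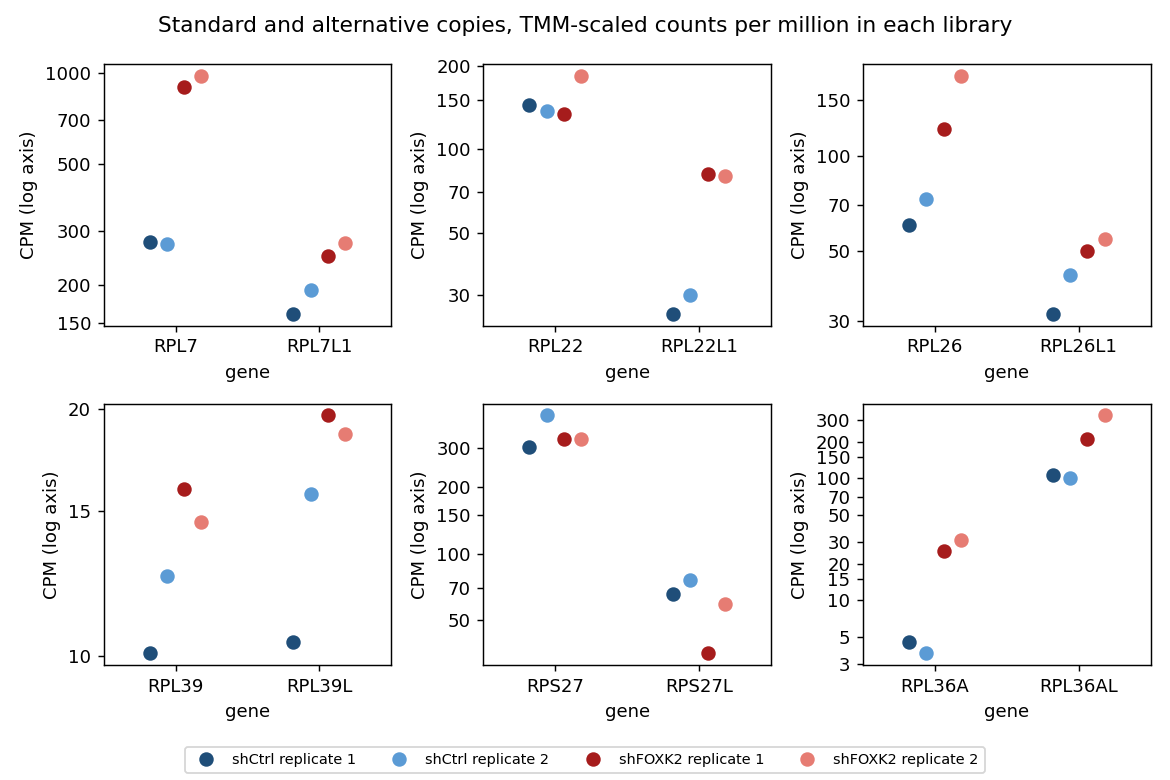
Each panel plots the scaled level (CPM, log axis) of a standard gene and its copy in the 4 libraries, blue for shCtrl and red for shFOXK2. RPL22 overlaps between the groups while RPL22L1 does not, RPL7 separates more widely than RPL7L1, and RPL36AL lies above RPL36A in every library.

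Genes with other names that encode proteins of the same ribosome gave a mixed picture. FAU, whose fusion product yields RPS30, was counted 5379, 5567, 6317 and 7229 times (log2 fold change 0.52, adjusted p = 0.0998). RACK1, a signalling scaffold on the 40S head, had 41378, 40116, 27089 and 33799 (−0.21, adjusted p = 0.519). Neither passed the test.

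Members were also compared with each other, by scaling each library to the summed counts of the family in place of all genes. On this scale the median member was at −0.02. Relative to the family 7 members rose, with RPL36A, RPL7, RPL22L1, RPL21, RPL26 and RPS20 among them, and 4 fell, namely RPL15 (log2 −0.88, adjusted p = 0.00898), RPS27L (−0.92, adjusted p = 0.0469), RPS21 (−0.64, adjusted p = 0.0384) and RPL10 (−0.64, adjusted p = 0.0458). Over all tested genes 14.7% rose and 26.1% fell on this scale. In all, 11 of 82 members passed the test on this scale (13.4%, beside 40.8% of all genes). Leaving out single libraries gave 2 to 7 higher and 0 to 3 lower. Only 2 were higher without shFOXK2 replicate 1 and likewise without shFOXK2 replicate 2, and 4 without shCtrl replicate 2. None was lower without either shFOXK2 library, and 2 were without shCtrl replicate 2.

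Base composition was set beside the fold changes because an offset on it changed individual calls. Across the 82 tested genes the log2 fold change had a Spearman correlation of 0.12 with transcript A content, −0.05 with GC content, −0.08 with transcript length, −0.15 with mean CPM and 0.05 with the share of 50-base windows found in other transcripts. These are descriptions across genes that share libraries. Among the 11 members with an A content of at least 31% (limits chosen after the values were seen), 6 rose without an offset and 0 with a smooth offset on A content, under which 4 of them fell (RPL17, RPL21, RPS24 and RPS25). RPL21 then had a log2 fold change of −0.54 (adjusted p = 0.0463), RPL26 of −0.54 (adjusted p = 0.108), RPL6 of −0.09 and RPL5 of −0.06. Among the 63 members from 22% to under 31%, 10 rose without and 24 with the offset. Among the 8 members below 22% these counts were 0 and 6. Over all genes 48.4% were called without the offset (25.7% higher and 22.7% lower). With it 51.3% were called (28.2% higher and 23.1% lower), and the median of all genes shifted by 0.17. RPL36A, RPL7 and RPL22L1 kept log2 fold changes above 1 in both fits. The offset also lowered the share of member calls that were rises from all of them to 88.2%, and an offset on transcript length lowered it to 66.7%, with 12 higher and 6 lower. An offset on GC content gave 43 higher and 2 lower.

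**Figure D4:**
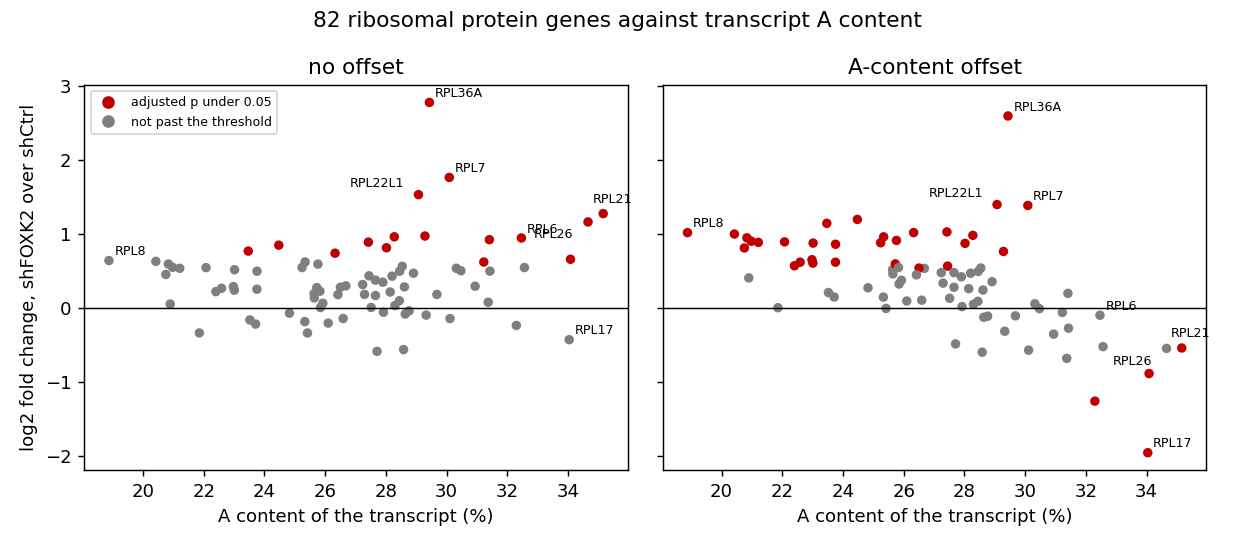
Each point is 1 of the 82 tested genes, plotted by the A content of its transcript in percent and its log2 fold change, without an offset on the left and with the smooth offset on A content on the right. Red marks an adjusted p under 0.05, and the genes of at least 31% A move from mostly positive to mostly negative values while RPL36A, RPL7 and RPL22L1 stay above 1.

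The members lie on 21 chromosomes, and those on chromosome 8 had the highest median among chromosomes with more than 1 tested member. RPL7, RPL8, RPL30 and RPS20 were all higher in both shFOXK2 libraries, with a median log2 fold change of 0.81, and 2 of them passed the test. The other 78 tested members had a median of 0.29 and 14 calls. The 500 other tested genes of chromosome 8 had a median of 0.47, and 54.2% of them changed (199 rose and 72 fell). They too thus rose more often than they fell. Over all tested genes the median was 0.04 and 48.4% changed (25.7% higher and 22.7% lower). None of the 12 members on chromosome 19 passed the test, with a median of 0.28.

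Members whose loss causes Diamond-Blackfan anaemia are a subset of the family. Of 18 such members, 6 rose (RPL26, RPS26, RPL35, RPS24 and RPL5 among them), 0 fell, and the median log2 fold change was 0.50. The share called (33.3%) was below the 48.4% of all tested genes, and rises among all genes made up 25.7%.

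Members differed in level by orders of magnitude, and the order was nearly the same in all libraries. Per kilobase of annotated transcript, RPL8 was the highest at 3027 CPM per kilobase in shCtrl and 4735 in shFOXK2, followed in shCtrl by RPL19 at 2163, RPLP2 at 1855, RPS29 at 1716 and RPS21 at 1705. RPS29 and RPS21 differed by less than the spread of their replicates. The lowest tested members were RPL36A at 5.39 in shCtrl and 37.2 in shFOXK2, RPS27L at 11.6 and 7.71, RPS10 at 11.9 and 18.3, and RPL17 at 14.5 and 10.8. Annotated lengths ran from 295 to 7573 bases, and a long annotated transcript lowers the value of a gene that mainly makes a short one. Over the 82 members, Pearson's r of log2 CPM, as a description across genes, was 0.995 for the pair of shCtrl libraries, 0.994 for the shFOXK2 pair, and from 0.951 to 0.967 for a library of each group.

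Other genes of the translation machinery are given beside the members as counts and medians, to be read against the 48.4% of all tested genes that changed (25.7% higher and 22.7% lower). Of 50 genes of ribosome biogenesis, which process ribosomal RNA and assemble the subunits in the nucleolus, 30 rose and 0 fell (60% called), with a median log2 fold change of 1.01. NOP58, a core protein of box C/D small nucleolar particles, rose the most in this list, from 1035 and 658 counts to 4989 and 8071 (log2 fold change 3.18, adjusted p = 1.75e-06). Of 12 tested noncoding hosts of small nucleolar RNAs, several of which have a TOP start, 9 rose and 1 fell (83.3%), with a median of 1.11. SNHG12 had the largest rise (1.82) and SNHG16 was the one that fell (−0.74).

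The dedicated chaperones and import factors of ribosomal proteins held 6 tested genes, of which 3 rose and 1 fell (66.7%). RRS1, which brings the 5S particle into the large subunit precursor, rose from 365 and 299 counts to 1772 and 1291 (log2 fold change 2.48, adjusted p = 4.04e-05), while AAMP fell (−0.74, adjusted p = 0.0206).

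Translation factors and other genes of the TOP class, taken as 1 list, were divided. Of 15 tested, 5 rose and 4 fell (60%), with a median of 0.24. EIF3E, a subunit of initiation factor eIF3, was counted 3488, 2642, 7743 and 12468 times (log2 fold change 1.94, adjusted p = 4.23e-05). EIF3L, a subunit of the same factor, had 2359, 2054, 495 and 485 counts (−1.93, adjusted p = 8.13e-05). The elongation factors EEF1A1 and EEF2 fell as well, by 0.92 and 1.06 on the log2 scale (adjusted p = 0.0101 and 0.00489), both with shFOXK2 libraries well below the controls, and are named here after their values were seen. EEF1G is listed at 0 in every library, and whether its reads were lost in the counting was not tested. In the RefSeq windows a run was at the start of 10 of 11 genes of this list, beside 3 of 45 genes of ribosome biogenesis (6.667%).

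Of 29 initiation factors, 10 rose and 2 fell (41.4%, below the share of all genes), with a median of 0.25. EIF5B, the GTPase that joins the subunits, had the largest rise, from 2251 and 789 to 10129 and 18636 counts (log2 fold change 3.53, adjusted p = 7.74e-06), and EIF4H, a partner of the helicase eIF4A, the largest fall (−0.80, adjusted p = 0.0105). Of 12 regulators of TOP messages, 2 rose and 2 fell (33.3%, also below it), with a median of −0.01. LARP1B (1.53, adjusted p = 0.00119) and EIF4EBP1 (1.09, adjusted p = 0.00305) rose. EIF4EBP2 (−0.97, adjusted p = 0.00345) and MTOR (−0.75, adjusted p = 0.0191) fell. The related EIF4EBP1 and EIF4EBP2, both repressors of cap-dependent initiation under mTOR, thus moved in opposite directions.

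The mitochondrial ribosome has its own set of proteins, encoded in the nucleus. Of 78 tested, 21 rose and 3 fell (30.8%, below the share of all genes), with a median of 0.37. MRPL1 had the largest rise (2.72, adjusted p = 6.90e-06) and MRPS24 the largest fall (−1.42, adjusted p = 0.0067). The 338 other tested genes at or above the lower quartile of the members' mean CPM (359 CPM) had a median of −0.23. Of them 55 rose and 126 fell (53.6% called). Of the 82 cytosolic members 16 rose and 0 fell (19.5%), so a smaller share was called and none of it downward.

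**Figure D5:**
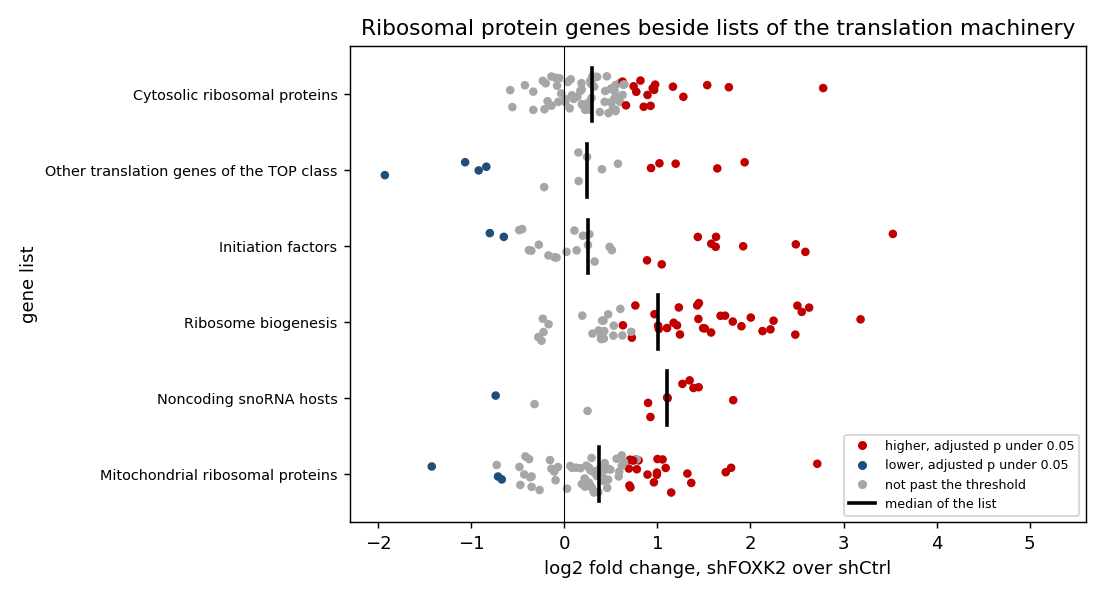
Each point is the log2 fold change of a tested gene in the list named on the vertical axis, red for a rise and blue for a fall with an adjusted p under 0.05, grey otherwise, with the median of the list as a black bar. The 82 cytosolic ribosomal protein genes lie within −0.58 to 2.78 around a median of 0.30, and the ribosome biogenesis list around 1.01. The list of other TOP-class genes splits between rises and falls.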

How the data were processed

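RNA-seq counts per gene symbol were compared between 2 shCtrl and 2 shFOXK2 libraries of OVCAR5 cells, grouped by their titles. The authors selected polyadenylated RNA, sequenced single-end reads of 50 bases, aligned them to hg38 with STAR 2.5.2 and counted them with HTSeq. They deposited raw counts without normalization. The annotation and the strand setting of the counting are not given in the sources used here. Paralogs, pseudogenes and overlapping genes can lose or exchange reads, and reads of opposite strands may not have been told apart.

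The shCtrl libraries totalled 21950873 and 16804525 counts, the shFOXK2 libraries 14284005 and 17733407. A floor of 3 counts corresponded to 0.137 to 0.21 CPM. Intervals and floors cover counting error alone. The labels call the replicates biological duplicates and do not say whether they came from separate transductions, so p-values measure the spread between these libraries.

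All genes were filtered with filterByExpr, scaled by TMM and tested with the 2-sided quasi-likelihood F test of edgeR 4.0.16 (R 4.3.3), with Benjamini-Hochberg adjustment over 16417 genes and a threshold of 0.05. Every adjusted p comes from this fit unless another is named. Standard errors (SE) are the size of the log2 fold change over the root of F. The fits were tested on simulated data. The family scaling used summed member counts as library sizes. Lengths, composition and positions came from GENCODE v44 (hg38), which matched all 84 members and 65.2% of 56655 symbols.

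Alternatives were the replicate block, DESeq2 size factors, library size alone, TMM without members and mitochondrially encoded genes, no filter, at least 10 counts in every library, the edgeR exact test, the Wald test of DESeq2 1.42.0, lowess offsets (span 0.2) on GC content (also with the block), A content or length, glmTreat at a log2 fold change of 1, and leaving out each library, where a lone library is assumed to vary like the rest. A block with crossed numbers was added after seeing the data. Members and lists were chosen with earlier results of these data known. Members named in full were the 8 largest called rises, any called falls, the 5 of highest CPM, the 3 smallest changes, the stalk, the 5S proteins, RPS6, RPSA, RPS27A, RPL3, RPL10, RPS4X and the copies with their partners. Other members were picked for mention with their values in view. Some members and related genes that the naming rule takes are not reported here one by one and are not drawn in the plot of single members, but they stay in all counts, sums and medians.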

Additional observations from a re-analysis of the deposited data

How the results depend on the processing

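The 16 rises and 0 falls among members became 43 and 2 with the GC offset, and 43 and 2 with that offset and the replicate block. They became 30 and 4 under an A-content offset, 12 and 6 with the length offset, and 17 and 1 without a filter. With glmTreat they were 3 (RPL36A, RPL7 and RPL22L1) and 0. The share of all genes called was 53.0% with the GC offset, 54.1% with the block too and 51.3% under the A-content offset. It was 52.5% with the length offset, 26.25% without a filter and 20.6% with glmTreat. With the replicate block alone 14 rose and 0 fell, beside 44.3% of all genes called. RPS24 (adjusted p = 0.0663) and RPL5 (adjusted p = 0.0801) no longer passed in that fit. The correlation of same-numbered deviations over all genes was −0.113, which does not pair the samples. The crossed block, added after seeing the data, gave 28 and 1, beside 50.9% of all genes called. Leaving out each library gave 10 to 24 rises and 0 to 2 falls, with 10 and 2 without shCtrl replicate 1, 24 and 0 without shCtrl replicate 2, and 10 and 1 without shFOXK2 replicate 2. Relative to the family, leaving out libraries gave 2 to 7 higher and 0 to 3 lower. The cause of these differences was not tested. The median of all genes shifted by 0.13 under the GC offset, 0.17 under the A-content offset and −0.10 without a filter, and the members' median of 0.30 became 0.56 under the GC offset, with the block too, 0.42 under the A-content offset, 0.20 without a filter, 0.11 under the length offset, and 0.13 to 0.48 when libraries were left out.

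Among named members, the A-content offset reversed RPL21 (−0.54), RPL26 (−0.54), RPL6 (−0.093), RPL5 (−0.056), RPS27A (−0.10), RPL26L1 (−0.0049), RPL10 (0.0082), RPLP0 (0.15) and RPSA (0.28). The GC offset, without and with the block, reversed RPL10 (0.0016 and 0.0091), RPL19 (0.31 and 0.31), RPL22 (−0.056 and −0.063), RPL4 (0.029 and 0.039), RPLP0 (0.14 and 0.15), RPS27 (0.11 and 0.13), RPS27A (−0.12 and −0.087) and RPSA (0.21 and 0.22). The length offset reversed RPL3 (−0.025), RPL39 (−0.16), RPL4 (0.051), RPS13 (−0.45), RPS27A (−0.11) and RPS4X (−0.038). No filter reversed RPL3 (−0.032), RPS13 (−0.089) and RPS4X (−0.091). DESeq2 and its size factors reversed RPS13 (−0.0074 both) and RPS4X (−0.0078 both), TMM without members RPS13 (−0.024) and RPS4X (−0.026), library size alone RPL19 (0.0094), and 10 counts in every library RPL19 (0.013). Leaving out libraries turned RPL13 (−0.0081 to 0.49), RPL19 (−0.22 to 0.064), RPL22 (−0.11 to 0.36), RPL3 (−0.16 to 0.21), RPL4 (−0.25 to 0.0021), RPS13 (−0.17 to 0.10), RPS27 (−0.39 to 0.040), RPS3 (−0.053 to 0.35), RPS4X (−0.17 to 0.10) and RPSA (−0.35 to 0.16). Of these RPL21, RPL26, RPL6 and RPL5 had passed the test. RPS24, also a called rise, turned under the A-content offset (−0.88, adjusted p = 0.0168). FOXK2 stayed below 0 under all alternatives run, with an adjusted p from 0.166 to 0.904.

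Among companion lists, the mitochondrial ribosome had 24 genes called, and 43 with the GC offset, 44 with the block too, 44 under an A-content offset, and 15 to 21 when libraries were left out. Its median of 0.37 was 0.42 with the A-content offset, 0.42 with the GC offset and block, 0.42 with 10 counts in every library, 0.42 with library size alone, 0.34 with TMM without members, 0.29 with the length offset, 0.27 without a filter and 0.18 to 0.45 without single libraries. The initiation factors' median of 0.25 was 0.42 and 0.41 with the GC offset without and with the block and 0.062 to 0.24 without single libraries. The chaperones' median of 1.18 was 0.64 with the A-content offset and 1.03 to 1.28 without single libraries. The TOP-class list's median of 0.24 was −0.0047 with the A-content offset and −0.0028 to 0.35 without single libraries. The small nucleolar RNA hosts had 6 to 10 genes called without single libraries.

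For the fold changes of the named members under alternatives that kept all libraries, 42 values reversed, as given above. Of the others, 331 kept their direction and side of the threshold, 36 newly passed it and 7 lost it without reversing. With 2 libraries a group, every p rests on variance shared between genes, and a modest change in 1 member was not detectable.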
